A study of Mus musculus with 4 samples.

Results

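The comparison described here is the effect of diabetes in mice that had lost 1 kidney. Its members are 2 of the 4 arrays of the series, the array of diabetic mice after uninephrectomy and the array of nondiabetic mice after uninephrectomy, and they were chosen by their labels alone. The diabetic mice carried the OVE26 transgene on the FVB/NJ background, and the nondiabetic mice were littermates without it on the same background. All were females, operated on at 2 months of age and killed at 4.5 months, 10 weeks later, and the kidney that remained was perfused with buffered saline before tissue was frozen. Both groups had therefore undergone the operation, and they differ by the transgene and the diabetes that follows from it. As background, the OVE26 transgene drives calmodulin in pancreatic beta cells and makes the mice diabetic early in life, so the kidney is not itself a target of the transgene. The other 2 arrays, of diabetic and nondiabetic mice after a sham operation, are used only for values set side by side. Below, the diabetic array and the nondiabetic array mean those of the uninephrectomised mice unless the sham arrays are named.

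Each array holds RNA pooled from 4 mice, so the spread between animals is not measured, there is no replicate and no test, and every difference is given as the 2 values and their distance. Differences are diabetic minus nondiabetic on the scale log2(signal + 26.4), where 26.4 is the 20th percentile of all deposited signals. For genes with low signals the offset draws the difference towards 0. Of 18193 genes with a probe set that names them alone, 11206 counted as expressed, with a mean log2 value over the 4 arrays of at least 7.06, which is a signal of about 106.7. Each gene is represented by its brightest probe set, called the lead probe set, and other expressed probe sets of the same gene are called further probe sets. The arrays measure whole kidney, in which fewer cells of a type and less RNA per cell cannot be told apart.

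The labels were checked on a few genes. Xist, from the inactive X chromosome, had a signal of at least 12775 on every array, and 3 Y-linked genes had signals of at most 56.3, as the label female implies. Umod, the urinary protein of the thick ascending limb, Slc34a1, the proximal phosphate transporter, and Aqp2, the water channel of the collecting duct, had signals of 36353, 11213 and 3583 in the diabetic array and 48279, 16823 and 1446 in the nondiabetic array, so the defining genes of kidney tubule were bright in both pools. The 3' to 5' signal ratio of Actb was 3.38 in the diabetic and 3.49 in the nondiabetic array, and that of Gapdh was 0.906 in the diabetic and 0.993 in the nondiabetic array. The 2 arrays differed in their controls. The 3 control probe sets for 18S ribosomal RNA were all brighter in the diabetic array, 1.85-fold in geometric mean, and the 18 hybridisation spike-ins, which are added at equal amounts to every array, were all dimmer there, at 0.749-fold. The 24 spike-ins added before labelling stood at 0.881-fold. Between the sham arrays the hybridisation spike-ins went the other way, at 1.24-fold in the diabetic sham array. Sham values and medians below are on the deposited scale and are not given with the spike-ins made equal. The RNA of each pool came from frozen kidney, and the part of these control differences in the gene differences below was not tested.

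As background for what follows, diabetes raises glomerular filtration and the load of filtered glucose on the proximal tubule, and removal of a kidney adds to the work of each nephron that is left. Injured tubule cells lose part of their transport programme, re-enter the cell cycle or arrest in it, and release chemokines and matrix signals to the cells around them. In the mouse, the secreted protein NGAL (Lcn2), the surface protein KIM-1 (Havcr1), osteopontin and clusterin are the usual markers of that state, and collagen, fibronectin and lysozyme-bearing macrophages mark the fibrosis and inflammation that may follow. Osteopontin (Spp1) was not analysed here, because it has no probe set that names it alone.

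Across the 11206 expressed genes the 2 arrays had a Pearson correlation of 0.969 across genes, which are not independent replicates, a median difference of -0.01 and a standard deviation of 0.42. The difference lay above 0 for 5445 genes, or 48.6% of those described. The diabetic array was at least 2-fold higher for 240 genes, which is 2.14% of those described, and at least 2-fold lower for 116, which is 1.04%. Counts in the lists below are to be read beside these shares. In the larger lists, 1 member past 2-fold lies near them and is not a trait of the list. At 4-fold there were 34 genes higher and 2 lower, and at 8-fold 3 higher, Lcn2, Havcr1 and Tnfrsf12a, and 0 lower. At 1.5-fold there were 720 genes higher and 679 lower, so the higher side reached further but was not much longer at small distances. The split depends on the filter and on how the arrays are set level. Higher genes made up 67.4% of the 2-fold calls here, 80.8% after centring the arrays on their medians, and 95.6% when the hybridisation spike-ins were made equal, a setting chosen after seeing the data that moves the median of all genes to 0.39. They made up 60.4% with an offset of 1 and 42.2% without a filter, where 657 genes were higher and 900 lower, so the direction of the split turned there. Of the 56 lists described below with at least 5 expressed members, 24 had a median below 0. With the spike-ins made equal 23 of these medians turned positive, all but that of amino acid breakdown, and with centring 8 did. Beside this, the diabetic sham array was at least 2-fold higher than its nondiabetic partner for 89 genes and lower for 50.

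**Figure D1:**
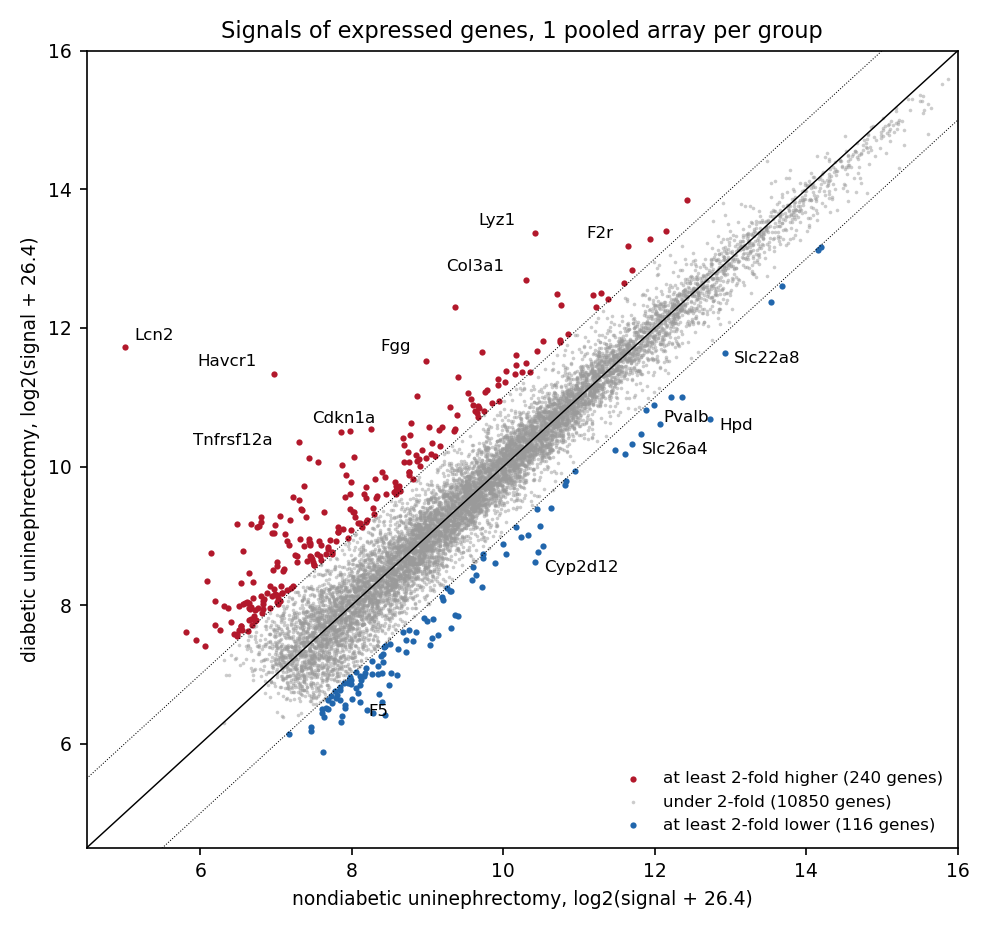
Signal of each of the 11206 expressed genes in the diabetic uninephrectomy array (vertical axis) against the nondiabetic uninephrectomy array (horizontal axis), both as log2(signal + 26.4). The solid line marks equal signals and the dotted lines a 2-fold distance. The 240 red genes lie at least 2-fold higher and the 116 blue genes at least 2-fold lower in the diabetic array, and Lcn2 lies farthest from the line.

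The only check that the arrays hold within themselves is whether different probe sets of a gene say the same. It is a partial check, since all probe sets of an array see the same pool, labelling and hybridisation, and probe sets with the suffix _a_at, _s_at or _x_at may share probes or detect related transcripts. Of the 240 higher genes, 174 had a lead probe set only. The other 66 had 98 further probe sets, of which 85 were also higher in the diabetic array, or 86.7% (95% Wilson interval 78.6 to 92.1%, counting error only). Their median difference was 0.72, against 1.24 for the lead probe sets of the same genes, and 29 of them passed 2-fold. The 116 lower genes included 24 with further probe sets, 28 in number, and 23 of these were lower too (82.1%, interval 64.4 to 92.1%), with a median of -0.57 against -1.17 for the leads. Both intervals treat probe sets as independent. Several belong to the same gene and all come from the same 2 arrays, so the intervals are too narrow. Over all genes, 62.9% of 8158 further probe sets had the sign of their lead. That share covers many genes with a small difference, whose sign is easily turned. The 2 shares come from genes selected for a lead at least 2-fold apart, so a higher share was likely from the selection alone. The 62.9% is therefore not a baseline for the 2 shares, and nothing is concluded from the gap between them.

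**Figure D2:**
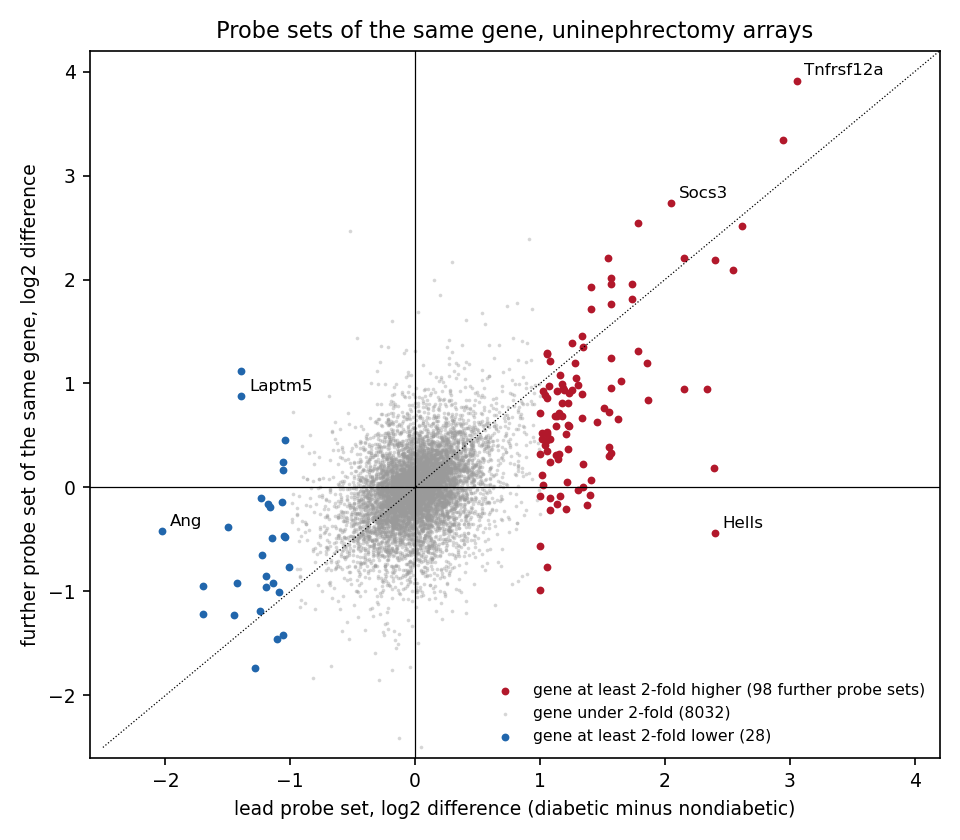
Log2 difference of each further expressed probe set (vertical axis) against that of the lead probe set of the same gene (horizontal axis), diabetic minus nondiabetic uninephrectomy, with red and blue for genes whose lead is at least 2-fold higher or lower. Most of the 98 red points lie above 0 and most of the 28 blue points below it, while the points of Hells and Laptm5 lie on the far side.

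Probe sets of opposite sign were a minority. Of the 98 further probe sets of higher genes 13 lay below 0, and of the 28 of lower genes 5 lay above it. Hells, a chromatin helicase of dividing cells, had the widest split among the higher genes: its lead had signals of 564 in the diabetic and 85.1 in the nondiabetic array, a difference of 2.40, while another had 145 in the diabetic and 206 in the nondiabetic array, a difference of -0.44. Laptm5, a lysosomal protein of blood cells, split the other way, with -1.39 for its lead and 0.88 and 1.12 for the other probe sets. Both genes stay in the counts of their lists below, DNA replication for Hells and macrophages for Laptm5. Dim genes differed most. In the dimmest tercile by level, 5.92% of genes passed 2-fold in either direction and 95% of further probe sets lay within 0.96 of their lead. In the brightest tercile these values were 1.34% and 0.40. Among the 240 higher genes, 72 had a signal below the expression filter in the nondiabetic array, and among the 116 lower genes 49 had it in the diabetic array. In 10 of the higher genes the diabetic array after uninephrectomy was the only one of the 4 above the filter, so these genes were described only because that array was high. Differences that rest on a signal below the filter depend on the offset, and listed genes whose lead probe set is of this kind are pointed out below.

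In 16 genes, or 0.325% of the 4924 with at least 2 expressed probe sets, every expressed probe set was at least 2-fold higher in the diabetic array, and in 5, or 0.102%, every probe set was at least 2-fold lower. Of the 16, 4 encode collagen chains, and the others have varied roles. Tnfrsf12a, which encodes the receptor Fn14 for the cytokine TWEAK, had signals of 1286 in the diabetic and 132 in the nondiabetic array with its lead probe set and 1294 in the diabetic and 61.3 in the nondiabetic array with the other, differences of 3.06 and 3.91. The signal of 61.3 lies below the filter, so the 3.91 depends on the offset. Ankrd1, a nuclear ankyrin repeat protein induced by mechanical and injury signals, had 404 in the diabetic and 43.9 in the nondiabetic array with its lead probe set, and its probe sets gave 2.52 to 2.62. Its nondiabetic signals lie below the filter, so its distance depends on the offset. By its lead probe set it was above the filter only in the diabetic array after uninephrectomy. F2r, the thrombin receptor PAR1, was bright throughout, with 9283 in the diabetic and 3169.9 in the nondiabetic array and probe set differences of 1.54 to 2.21. Lgals1, the secreted lectin galectin-1, had 10830.0 in the diabetic and 4529 in the nondiabetic array (probe sets 1.25 to 1.39), Fst, which encodes the activin antagonist follistatin, had 1558 in the diabetic and 412 in the nondiabetic array (probe sets 1.19 to 1.85), and Serpina1b, an alpha-1-antitrypsin gene with near-identical neighbours that probes may not separate, had 1429 in the diabetic and 626 in the nondiabetic array (probe sets 1.08 to 1.16). Clca3a1, a member of the chloride channel accessory family, gave 1.31 to 1.79.

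The 5 genes lower with every probe set include transporters and a secreted lipoprotein component. Slc22a8, the basolateral organic anion transporter OAT3 of the proximal tubule, had signals of 3172 in the diabetic and 7744 in the nondiabetic array, and 723 in the diabetic and 2464 in the nondiabetic array with another probe set, differences of -1.28 and -1.73. Apom, which encodes the lipoprotein-bound apolipoprotein M and is made in kidney as well as liver, had 1538 in the diabetic and 4255 in the nondiabetic array (probe sets -1.45 to -1.23). Pigr, the polymeric immunoglobulin receptor of epithelia, had 1180.0 in the diabetic and 2826 in the nondiabetic array (probe sets -1.24 to -1.19). Abcb1a, a P-glycoprotein gene that pumps drugs out of cells, had 269 in the diabetic and 609.6 in the nondiabetic array (probe sets -1.46 to -1.11), and Syn3, a synapsin gene, had 269.7 in the diabetic and 603 in the nondiabetic array (log2 difference -1.09). In the sham arrays the differences of these 5 genes were -0.17, -0.70, -0.95, -0.96 and -0.70.

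**Figure D3:**
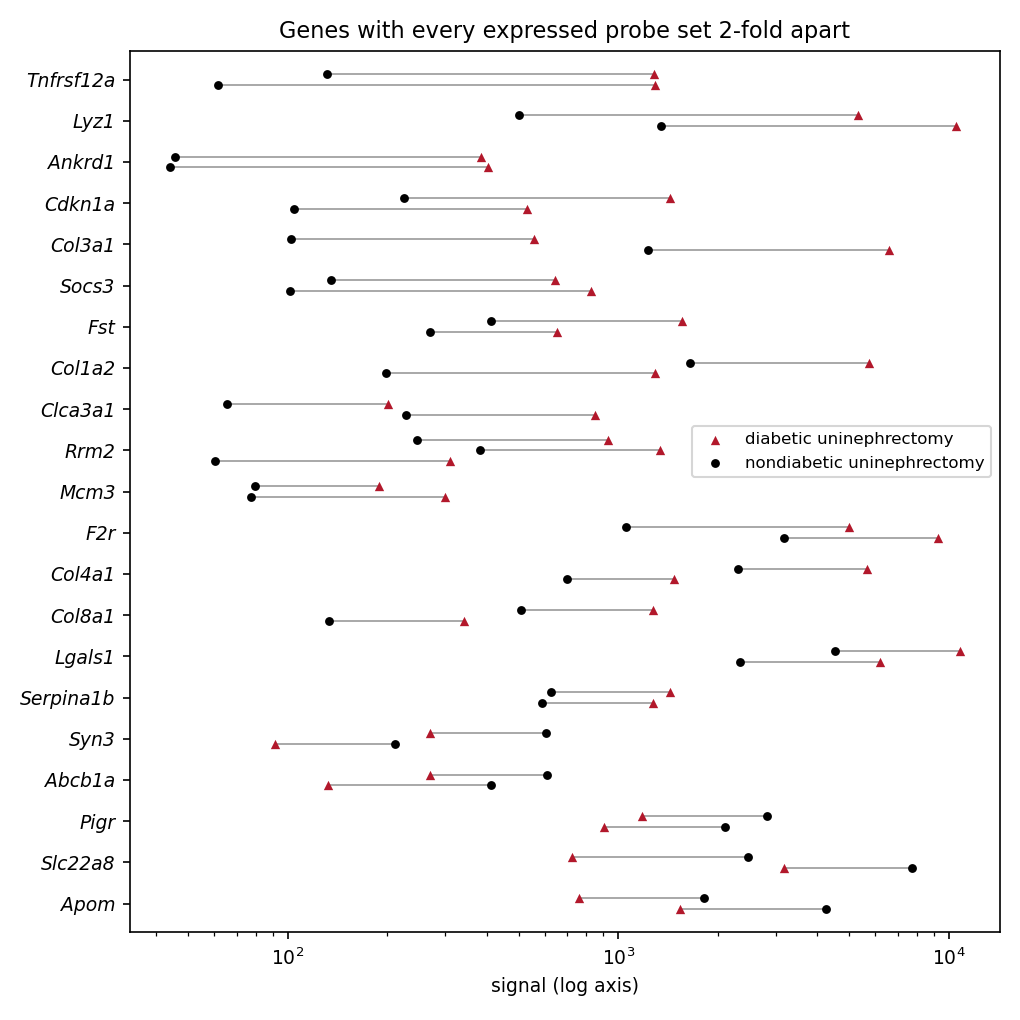
Signal (horizontal log axis) of each expressed probe set of the 21 genes whose probe sets all lie at least 2-fold apart, with a red triangle for the diabetic and a black circle for the nondiabetic uninephrectomy array and a grey line joining them. Every probe set of the 16 upper genes has its triangle right of its circle and every probe set of the 5 lower genes has it to the left.

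The gene lists were chosen with earlier results of these data known, so which far-apart genes a list holds is not a result. The list of tubular injury genes includes the 3 expressed genes that were farthest apart of all, Lcn2, Havcr1 and Tnfrsf12a. Of 14 expressed members 8 were at least 2-fold higher and 0 lower, 13 lay above 0, and their median difference was 1.18, beside 0.26 in the sham arrays. Over all expressed genes 2.14% were at least 2-fold higher, 1.04% that far lower, and 48.6% above 0. Lcn2, the iron-carrier-binding protein NGAL, had signals of 3374 in the diabetic and 5.7 in the nondiabetic array. The nondiabetic value is below the offset, so its difference of 6.73 depends on that offset. The sham arrays had 224 for diabetic and 41.7 for nondiabetic mice, a difference of 1.88. Havcr1, the phagocytic receptor KIM-1 that proximal tubule cells display after injury, had 2552 in the diabetic and 98.8 in the nondiabetic array (log2 difference 4.36). Vcam1, an adhesion molecule that holds leukocytes, had 2041 in the diabetic and 438 in the nondiabetic array (log2 difference 2.16), and its 3 probe sets gave 0.95 to 2.21. Cd44, the hyaluronan receptor, had 502 in the diabetic and 99.8 in the nondiabetic array (log2 difference 2.07), and Stc1, a secreted glycoprotein hormone, 263 in the diabetic and 91.6 in the nondiabetic array (log2 difference 1.29). Dcdc2a, a doublecortin-domain gene, had 536 in the diabetic and 80.8 in the nondiabetic array (log2 difference 2.39), but its other probe set gave only 0.19. Of the 8 genes at least 2-fold higher, 5, Lcn2, Havcr1, Cd44, Stc1 and Dcdc2a, had nondiabetic signals below the filter.

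Other injury genes lay less far apart. Clu, the secreted chaperone clusterin, had 21781 in the diabetic and 11462 in the nondiabetic array (log2 difference 0.92) with its lead, and its 4 probe sets gave 0.83 to 1.22. Sox4, a transcription factor of developing tubules, had 3831 in the diabetic and 1829 in the nondiabetic array (log2 difference 1.06), and Cd24a, a surface glycoprotein of tubule progenitor-like cells, 14279 in the diabetic and 7651 in the nondiabetic array (log2 difference 0.90), with 3 probe sets each, all above 0. Prom1, which marks proximal brush borders, had 6619 in the diabetic and 7408 in the nondiabetic array (log2 difference -0.16), the only expressed member below 0. Sox9, Il34 and Vgf did not pass the filter. Of 8 expressed keratin and vimentin genes, 2 were at least 2-fold higher (median 0.57). Krt19, a keratin of ductal epithelium, had 575 in the diabetic and 119.6 in the nondiabetic array (log2 difference 2.04). Krt18 and Krt8, partners in the filaments of simple epithelia, differed by 1.17 and 0.78 (3 Krt8 probe sets, 0.78 to 1.44), and vimentin, Vim, had 3775 in diabetic, against 1943 in nondiabetic kidneys (log2 difference 0.95). Krt80 and Krt10, keratins of other epithelia, lay at -0.47 and -0.50.

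Genes of dividing cells were higher in the diabetic array. All 24 expressed genes of the DNA replication list lay above 0, as did 48.6% of all expressed genes. Of the 24, 9 did so by 2-fold or more, and the median was 0.79, beside 0.37 in the sham arrays. Of the 12 with several probe sets, 10 kept 1 sign. Rrm2, the ribonucleotide reductase subunit made in S phase, had 1337 in the diabetic and 383 in the nondiabetic array with its lead and differences of 1.74 to 1.96 over 3 probe sets. The subunits of the MCM helicase that unwinds DNA at replication origins spread widely: Mcm6 had 412 in the diabetic and 68.3 in the nondiabetic array (log2 difference 2.21), Mcm5 had 919 in the diabetic and 216 in the nondiabetic array (log2 difference 1.96), and Mcm3 had 298 in the diabetic and 77.2 in the nondiabetic array (log2 difference 1.65). Mcm4 had 816 in diabetic, against 356 in nondiabetic kidneys (log2 difference 1.14). Mcm7 and Mcm2 of the same ring differed by 0.55 and 0.29. Cdt1, which loads the helicase, had 947 in the diabetic and 312 in the nondiabetic array (log2 difference 1.52), Uhrf1, which couples DNA methylation to replication, 368 in the diabetic and 129 in the nondiabetic array (log2 difference 1.34), and Ccne2, a cyclin of S phase entry, 221 in the diabetic and 73.1 in the nondiabetic array (log2 difference 1.32). The sham difference of Uhrf1 was 1.38, with a nondiabetic sham signal below the filter. Pcna, the sliding clamp, had 5653 in the diabetic and 3616 in the nondiabetic array (log2 difference 0.64). Of the 9 genes at least 2-fold higher, Hells, Mcm3, Mcm6 and Ccne2 had nondiabetic signals below the filter, and Mcm6 and Ccne2 were above it only in the diabetic array after uninephrectomy. The lowest member was Mcm10, a further replication factor, at 0.04.

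Of 11 expressed mitosis genes 7 were at least 2-fold higher, with a median of 1.36, beside 0.63 in the sham arrays. The other 17 with a probe set, Cdk1 and Plk1 among them, did not pass the filter, so this list is read only on its brightest members. Top2a, the topoisomerase of mitotic chromosomes, had 469 in the diabetic and 133 in the nondiabetic array (log2 difference 1.63), Mki67, the proliferation antigen Ki-67, 451 in the diabetic and 148 in the nondiabetic array (log2 difference 1.46), and Ccna2, cyclin A2, 459 in the diabetic and 163 in the nondiabetic array (log2 difference 1.36). The sham difference of Mki67 was 1.34, with a nondiabetic sham signal below the filter. Cdc20, an activator of the anaphase complex, had 589.5 in the diabetic and 143 in the nondiabetic array (log2 difference 1.86) with its lead and 0.84 with another probe set. Tpx2, a spindle assembly factor, lay on the other side at -0.58. So did Foxm1, a transcription factor that drives mitotic genes in dividing cells, at signals of 469.8 in the diabetic and 805 in the nondiabetic array, a difference of -0.74, and its other expressed probe set lay lower still. Foxm1 was in no list and was named by rank, for both of its expressed probe sets.

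The promoters of Mcm6 and Mcm3 are shown because the replication genes lay together. They are windows of 300 bases, from 250 before to 50 after the annotated start, from RefSeq on GRCm38.p6. Capitals mark the motif TTTGGCGC or TTTCGCGC, the usual site of E2F factors that switch on S phase genes, searched on both strands.
Mcm6 (chr1:128359656-128359955, minus strand): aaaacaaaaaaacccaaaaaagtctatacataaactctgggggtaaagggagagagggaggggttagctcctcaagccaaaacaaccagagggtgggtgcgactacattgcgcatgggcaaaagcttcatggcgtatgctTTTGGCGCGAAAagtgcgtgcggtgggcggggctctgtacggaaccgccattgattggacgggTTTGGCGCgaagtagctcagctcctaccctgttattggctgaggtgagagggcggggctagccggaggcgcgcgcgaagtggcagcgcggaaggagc
Mcm3 (chr1:20820263-20820562, minus strand): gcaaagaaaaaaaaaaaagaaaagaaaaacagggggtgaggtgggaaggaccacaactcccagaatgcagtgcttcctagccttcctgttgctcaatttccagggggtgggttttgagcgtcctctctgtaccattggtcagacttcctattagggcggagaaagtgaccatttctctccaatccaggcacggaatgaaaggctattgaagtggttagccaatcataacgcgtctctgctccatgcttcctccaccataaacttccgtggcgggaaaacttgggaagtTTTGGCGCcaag
The Mcm6 window holds 3 matches, at 110, 106 and 47 bases before the start, of which the match at 106 is read on the other strand and overlaps the match at 110. The Mcm3 window holds 1, 39 bases after the start. The motif is in 0.813% of 32851 RefSeq promoter windows and in 1.47% of those of expressed genes. Of the 20 expressed replication genes with a window it is in the window of 9, and of the 7 with a window that were at least 2-fold higher, in that of 5. A match describes the letters and is not evidence of binding.

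In the list of cell cycle arrest and p53 target genes 1 gene stood far apart. Of 22 expressed members 3 passed 2-fold, 19 lay above 0 and the median was 0.52. Cdkn1a, which encodes the cyclin-dependent kinase inhibitor p21, had 1438 in the diabetic and 225 in the nondiabetic array with its lead and 530.0 in the diabetic and 104 in the nondiabetic array with its other probe set, differences of 2.54 and 2.09. The signal of 104 lies just below the filter, so the 2.09 depends on the offset. Ccng1, cyclin G1, a p53 target that is bright in kidney, had 11899.6 in the diabetic and 6960.2 in the nondiabetic array (log2 difference 0.77), and its 3 probe sets gave 0.77 to 1.03. Phlda3, a p53 target that restrains Akt, had 490.3 in the diabetic and 280.3 in the nondiabetic array (log2 difference 0.75). Plk2, a stress-induced kinase, had 1008 in the diabetic and 451 in the nondiabetic array (log2 difference 1.12), Myc, the growth transcription factor, 554 in the diabetic and 246 in the nondiabetic array (log2 difference 1.09), and Ccnd1, cyclin D1, 7422 in the diabetic and 4142 in the nondiabetic array (log2 difference 0.84) with 3 probe sets at 0.67 to 0.84. Mdm2, which degrades p53, lay at only 0.22 with its lead (probe sets 0.22 to 1.01), and Cdkn1c, the inhibitor p57 of podocytes, had 634 in the diabetic and 1042 in the nondiabetic array (log2 difference -0.69). The start of Cdkn1a that lies upstream in RefSeq is shown because it carries a pair of CATG cores 6 bases apart (CATGNNNNNNCATG, the same on both strands), the spacing of cores in a p53 site, in capitals.
Cdkn1a, upstream start (chr17:29090729-29091028, plus strand): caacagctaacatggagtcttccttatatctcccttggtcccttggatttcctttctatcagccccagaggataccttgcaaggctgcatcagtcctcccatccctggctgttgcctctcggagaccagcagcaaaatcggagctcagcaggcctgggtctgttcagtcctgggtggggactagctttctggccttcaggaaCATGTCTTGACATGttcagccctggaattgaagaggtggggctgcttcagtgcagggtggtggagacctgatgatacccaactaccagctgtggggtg
The pair begins 48 bases before this start. The window of the other annotated start of Cdkn1a holds none, and 0.712% of all promoter windows hold such a pair.

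Immediate early genes lay on both sides of 0. Of 16 expressed members 3 were at least 2-fold higher and the median was 0.09. Atf3, a stress-induced transcription factor, had 459.5 in the diabetic and 116 in the nondiabetic array (log2 difference 1.77), Fosl2, a Fos family factor, 622 in the diabetic and 234 in the nondiabetic array (log2 difference 1.32), and Klf6, a zinc-finger factor of injured epithelium, 1753 in the diabetic and 762 in the nondiabetic array (log2 difference 1.17) with 4 probe sets at 0.69 to 1.17. Fos and Jun differed by -0.01 and 0.06, while Egr1 and Dusp1, which respond within minutes to growth signals, lay at -0.93 and -0.74. The signals of Egr1 were 3601 in the diabetic and 6902 in the nondiabetic array.

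Collagen chains were higher in the diabetic array for interstitial collagens and for part of the basement membrane. Of 22 expressed chains 10 were at least 2-fold higher and 0 lower, 18 lay above 0, and the median was 0.77, beside 0.39 in the sham arrays. Of the 12 chains with several probe sets, 11 kept 1 sign. Col3a1, the chain of type III collagen of interstitial fibres, had 6609.8 in the diabetic and 1229.7 in the nondiabetic array with its lead (probe sets 2.18 to 2.40), and Col1a2, a chain of type I collagen, 5751 in the diabetic and 1649.5 in the nondiabetic array (probe sets 1.79 to 2.55). Its partner Col1a1 had 502 in the diabetic and 97.3 in the nondiabetic array (log2 difference 2.10), and was above the filter only in the diabetic array after uninephrectomy. Col12a1, a fibril-associated collagen, had 1427 in the diabetic and 206 in the nondiabetic array (log2 difference 2.65), Col5a2, a chain that sets fibril width, 705 in the diabetic and 131 in the nondiabetic array (log2 difference 2.21), and Col8a1, a short-chain collagen, 1275 in the diabetic and 509 in the nondiabetic array (log2 difference 1.28). The type VI chains Col6a1, Col6a2 and Col6a3 differed by 1.13, 1.04 and 0.71.

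The type IV chains of basement membranes differed from each other. Col4a1 and Col4a2, which assemble with each other in nearly every basement membrane, had 5657 in the diabetic and 2296 in the nondiabetic array and 2366 in the diabetic and 1019 in the nondiabetic array, differences of 1.29 and 1.19. Col4a3, Col4a4 and Col4a5, which form the network of the mature glomerular basement membrane, differed by -0.18, -0.47 and 0.32, and every expressed probe set of Col4a4 lay between -0.53 and -0.47. Col27a1, a fibrillar chain, had 2920.4 in the diabetic and 4207 in the nondiabetic array (log2 difference -0.52). No chain was 2-fold lower.

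Other matrix proteins followed with smaller distances. Of 26 expressed glycoprotein and proteoglycan genes 6 were at least 2-fold higher (median 0.56). Fn1, fibronectin, had 2569 in the diabetic and 1112 in the nondiabetic array (log2 difference 1.19), Tnc, the wound matrix protein tenascin C, 391 in the diabetic and 129 in the nondiabetic array (log2 difference 1.43), and Postn, periostin, 535 in the diabetic and 199 in the nondiabetic array (log2 difference 1.32). Ccn2 and Ccn1, secreted regulators of matrix also known as CTGF and CYR61, had differences of 0.96 and 1.34, although 1 of 4 Ccn1 probe sets gave 0.01. Bgn, the proteoglycan biglycan, had 4306 in the diabetic and 2357 in the nondiabetic array (log2 difference 0.86), with 3 probe sets at 0.81 to 1.07. Hspg2, the basement membrane proteoglycan perlecan, lay at -0.18 and Eln, elastin, at 0.12. Of 19 matrix enzymes and inhibitors 3 were at least 2-fold higher (median 0.45). Lox, the enzyme that cross-links collagen, had 547 in the diabetic and 101 in the nondiabetic array (log2 difference 2.17), Mmp14, a membrane-bound collagenase, 326 in the diabetic and 73.5 in the nondiabetic array (log2 difference 1.82), and Adamts1, a secreted protease, 2442 in the diabetic and 945 in the nondiabetic array (log2 difference 1.35). The nondiabetic signals of Lox and Mmp14 lie below the filter. Timp2, an inhibitor of such proteases, could not be placed, since its 5 probe sets ran from -1.09 to 1.61. None of 17 expressed integrin and laminin genes was 2-fold apart in either direction (median -0.07). Itgb6, the epithelial integrin that activates TGF-beta, had 684 in the diabetic and 381 in the nondiabetic array (log2 difference 0.80), and Itga8, the mesangial integrin, 740.3 in the diabetic and 1395 in the nondiabetic array (log2 difference -0.89).

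Signalling families had members on both sides of 0. Of 26 TGF-beta and BMP genes 3 were at least 2-fold higher and 1 was that far lower, with a median of -0.05. Fst was given above. Grem1, gremlin, which binds and blocks BMPs, had 645 in the diabetic and 226 in the nondiabetic array (log2 difference 1.41), and Inhbb, a subunit of activin B, 284 in the diabetic and 94.6 in the nondiabetic array (log2 difference 1.36), with the nondiabetic signal below the filter. The ligands Tgfb1 and Tgfb2 differed by 0.12 and 0.69, with 3 probe sets of Tgfb2 at 0.69 to 0.98, and Bmp7 and Bmp4 by -0.37 and -0.32. The Id genes, which BMP signals switch on in many cells, all lay below 0: Id1 had 2019 in the diabetic and 4704 in the nondiabetic array (log2 difference -1.21), Id3 had 1818 in the diabetic and 3166 in the nondiabetic array (log2 difference -0.79), and Id2 lay at -0.29 with 3 probe sets at -0.58 to -0.29. The inhibitory Smad6 and Smad7 differed by -0.51 and -0.29. In the Wnt list 1 of 17 was at least 2-fold higher (median -0.15), Wnt5a, a ligand of the pathway without beta-catenin, with 421 in the diabetic and 179 in the nondiabetic array (log2 difference 1.12) and 0.31 in its other probe set. In the EGF family 0 of 9 was 2-fold apart (median -0.28, and 0.13 with the spike-ins made equal). Egf itself, made by the distal tubule, had 20209.8 in the diabetic and 38379 in the nondiabetic array (log2 difference -0.92), while the ligands Btc and Hbegf had 0.86 and 0.71 and the receptors Egfr and Erbb2 -0.28 and -0.65.

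In the IL-6 family 2 of 13 expressed genes were at least 2-fold higher (median 0.23). Socs3, the feedback inhibitor induced through STAT3, had 642 in the diabetic and 135 in the nondiabetic array with its lead and 827 in the diabetic and 102 in the nondiabetic array with another probe set, differences of 2.05 and 2.73. In the sham arrays the same probe sets gave -0.39 and -0.84. The nondiabetic signal of 102 lies just below the filter, so the 2.73 depends on the offset. Osmr, the receptor subunit for oncostatin M, had 1162 in the diabetic and 400.4 in the nondiabetic array (log2 difference 1.48). Stat3 had 1691 in the diabetic and 944 in the nondiabetic array (log2 difference 0.82) with its lead, but its 4 probe sets ran from -0.90 to 0.82. The cytokines Il6, Il11, Lif and Osm did not pass the filter. Il6st, the shared signal chain gp130, differed by 0.23 with 3 probe sets at 0.21 to 0.34. In the list of TNF receptors and NF-kappaB 2 of 16 were at least 2-fold higher (median 0.05), Nfkbie, an NF-kappaB inhibitor, with 284 in the diabetic and 107 in the nondiabetic array (log2 difference 1.22), and Bcl3, a nuclear co-factor, with 220.4 in the diabetic and 87.7 in the nondiabetic array (log2 difference 1.11) and a nondiabetic signal below the filter. The subunit Rela and the inhibitor Nfkbia differed by -0.12 and -0.17.

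Fibrinogen genes, best known from the acute phase response of liver, were measured in kidney too. Fgg, the gamma chain, had 2921 in the diabetic and 478 in the nondiabetic array (log2 difference 2.55), Fga, the alpha chain, 2180.2 in the diabetic and 859.8 in the nondiabetic array (log2 difference 1.32), and Fgb, the beta chain, 464 in the diabetic and 296 in the nondiabetic array (log2 difference 0.60). All 3 chains were thus higher in the diabetic array, from 0.60 to 2.55, each on a lead probe set only. In the sham arrays they lay at 0.66, 0.27 and 0.99 for Fgg, Fga and Fgb. The 3 genes are neighbours on chromosome 3, and their promoter windows are shown because they lay on 1 side. Capitals mark CTGGGAA, the element of acute phase genes that STAT3 binds, searched on both strands.
Fgg (chr3:83007474-83007773, plus strand): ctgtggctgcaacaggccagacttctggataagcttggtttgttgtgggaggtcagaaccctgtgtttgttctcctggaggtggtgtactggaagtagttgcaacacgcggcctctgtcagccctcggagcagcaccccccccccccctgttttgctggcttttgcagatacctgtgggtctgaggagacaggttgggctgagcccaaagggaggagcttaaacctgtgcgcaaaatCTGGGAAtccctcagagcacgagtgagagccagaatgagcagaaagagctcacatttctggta
Fga (chr3:83025903-83026202, plus strand): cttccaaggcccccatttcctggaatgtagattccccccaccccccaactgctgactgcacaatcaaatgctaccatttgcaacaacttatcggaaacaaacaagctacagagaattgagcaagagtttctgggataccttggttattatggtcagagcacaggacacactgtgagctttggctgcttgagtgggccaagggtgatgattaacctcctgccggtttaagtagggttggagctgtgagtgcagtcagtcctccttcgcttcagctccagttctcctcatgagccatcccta
Fgb (chr3:83049814-83050113, minus strand): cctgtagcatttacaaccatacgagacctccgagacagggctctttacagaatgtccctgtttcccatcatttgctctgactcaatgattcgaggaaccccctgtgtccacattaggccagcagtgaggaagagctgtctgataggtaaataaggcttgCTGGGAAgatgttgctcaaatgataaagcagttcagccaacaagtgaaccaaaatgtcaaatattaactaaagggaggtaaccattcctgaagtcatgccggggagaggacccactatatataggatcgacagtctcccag
The Fgg window holds 1 match, 13 bases before the start, and the Fgb window 1, 91 bases before it. These letters are not in the Fga window, and 11.1% of all promoter windows hold them, so a match is common. Of 13 expressed coagulation genes 5 were at least 2-fold higher and 1 was that far lower (median 0.60). F3, tissue factor, had 1080.5 in the diabetic and 448 in the nondiabetic array (log2 difference 1.22), F13a1, which cross-links fibrin, 198 in the diabetic and 75 in the nondiabetic array (log2 difference 1.14), below the filter in the nondiabetic array, and F5, factor V, 70.7 in the diabetic and 248 in the nondiabetic array (log2 difference -1.50), below it in the diabetic array. Serpinc1, antithrombin, lay at -0.92.

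Of 13 expressed complement genes 10 lay above 0 and 1 was at least 2-fold higher (median 0.59, -0.03 in the sham arrays). Cfi, which cleaves C3b and C4b, had 1013 in the diabetic and 207 in the nondiabetic array (log2 difference 2.16). The 3 chains of C1q, products of macrophages, had 1161 in diabetic, against 581 in nondiabetic kidneys (log2 difference 0.97) for C1qa, 0.75 for C1qc and 3 probe sets at 0.59 to 1.08 for C1qb. Serping1, the C1 inhibitor, had 5331 in the diabetic and 3140.5 in the nondiabetic array (log2 difference 0.76). Cfb, factor B of the alternative pathway, was on the other side with 1560.2 in the diabetic and 2699.6 in the nondiabetic array (log2 difference -0.78). C3 was not analysed here.

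Chemokine and macrophage genes were higher at the median. Of 14 expressed chemokine, cytokine and adhesion genes 4 were at least 2-fold higher (median 0.75). Ccl2, which attracts monocytes, had 549.8 in the diabetic and 75.3 in the nondiabetic array (log2 difference 2.50), Ccl9, a further monocyte attractant of mice, 594 in the diabetic and 85.4 in the nondiabetic array (log2 difference 2.47), and Ccl8 342 in the diabetic and 111 in the nondiabetic array (log2 difference 1.42). Ccl2 and Ccl9, 2 of the 4 genes counted, were above the filter only in the diabetic array after uninephrectomy. Cxcl1, which attracts neutrophils, had 833 in the diabetic and 566 in the nondiabetic array with its lead and differences of 0.54 to 1.68 over 3 probe sets. Cxcl12, the stromal chemokine, lay at -0.39. Of 18 expressed macrophage genes 7 were at least 2-fold higher and 1, Laptm5 with its split probe sets, lower, and the median was 0.74, beside -0.05 in the sham arrays. The summed signal of the list was 36599 in the diabetic and 16372 in the nondiabetic array. The lysozyme genes Lyz1 and Lyz2 make up the larger part of that gap. Lyz2, a lysozyme of macrophages, had 5043 in the diabetic and 635 in the nondiabetic array. The related lysozyme gene Lyz1 had 10547 in the diabetic and 1348 in the nondiabetic array. The difference was 2.94 each, and their sequences are alike enough that probes may cross. Both are counted among the 7 higher genes. Cd14, the endotoxin co-receptor, had 1463 in the diabetic and 278 in the nondiabetic array (log2 difference 2.29), Tyrobp, a signal adaptor, 1048 in the diabetic and 386 in the nondiabetic array (log2 difference 1.38), and Ctss, cathepsin S, 3213 in the diabetic and 1369 in the nondiabetic array (log2 difference 1.21). The defining macrophage genes Csf1r and Adgre1, which encodes F4/80, differed by 0.02 (3 probe sets, -0.14 to 0.06) and 0.06. Cd68, Itgam and Itgax did not pass the filter.

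Other immune groups lay nearer the middle. Of 17 interferon response genes 1 was at least 2-fold higher (median 0.24), Irf7, the regulator of type I interferon, with 154 in the diabetic and 34.9 in the nondiabetic array (log2 difference 1.55). Its nondiabetic signal lay below the filter, so this difference depends on the offset. None of 10 antigen presentation genes was 2-fold apart (median 0.12), with Cd74, the class II chaperone, at 0.64 and B2m at -0.07. Only 4 of 15 lymphocyte and plasma cell genes were expressed, all above 0 and 1 of them, Cd52, a surface protein of lymphocytes, by 2-fold or more (median 0.63). Cd52 had 776 in the diabetic and 371 in the nondiabetic array (log2 difference 1.02). Jchain, which joins antibodies of plasma cells, had 2699.9 in the diabetic and 1591 in the nondiabetic array (log2 difference 0.75), and the T cell genes Cd3d, Cd3e, Cd4 and Cd8a did not pass the filter. Cybb, the phagocyte subunit of NADPH oxidase, had 386 in the diabetic and 149 in the nondiabetic array (log2 difference 1.23), whereas Nox4, the oxidase of tubule cells, had 16143 in the diabetic and 23783 in the nondiabetic array (log2 difference -0.56) with both probe sets below 0, and of 5 oxidase genes 1, Cybb, was at least 2-fold higher (median -0.21). Alox5ap, which presents arachidonate to the leukotriene enzyme, had 354 in the diabetic and 103 in the nondiabetic array (log2 difference 1.56), and Ptgds, a prostaglandin D synthase, 1048 in the diabetic and 408 in the nondiabetic array (log2 difference 1.31). The nondiabetic signal of Alox5ap was below the filter. They were the 2 genes at least 2-fold higher of 15 in prostaglandin and leukotriene synthesis (median 0.13).

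Calcium-binding annexins and S100 proteins lay mostly above 0. Of 14 expressed members 4 were at least 2-fold higher and 1 lower (median 0.43). S100a6, made by many proliferating and injured cells, had 3184 in the diabetic and 814 in the nondiabetic array (log2 difference 1.93), and S100a4, a marker of fibroblasts and some macrophages, 598 in the diabetic and 106 in the nondiabetic array (log2 difference 2.24), just under the filter in the nondiabetic array. Anxa1, an annexin that limits inflammation, had 2796 in the diabetic and 1123 in the nondiabetic array (log2 difference 1.30), and Anxa3 1838 in the diabetic and 603 in the nondiabetic array (log2 difference 1.57). Anxa13, an epithelial annexin, was far on the other side with 146 in the diabetic and 496 in the nondiabetic array (log2 difference -1.60), and its sham difference was -1.15. Ubd, a ubiquitin-like protein induced by cytokines, had 552 in the diabetic and 63.2 in the nondiabetic array (log2 difference 2.69), and was above the filter only in the diabetic array after uninephrectomy. It was the only 1 of 28 genes at least 2-fold higher in a list made up otherwise of proteasome subunits (median 0.10).

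Genes of organic ion and drug transport lay lower on the deposited scale. Of 23 expressed organic ion and drug transporters 3 were at least 2-fold lower and 0 higher, 18 lay below 0, and the median was -0.34, and 0.08 with the spike-ins made equal, beside -0.01 in the sham arrays. Next to Slc22a8 and Abcb1a, Abcb1b, the other P-glycoprotein gene, had 539.7 in the diabetic and 1402 in the nondiabetic array (log2 difference -1.34). Abcc4, an apical efflux pump for organic anions, had 3001 in the diabetic and 5677 in the nondiabetic array (log2 difference -0.91), and Slc47a1, which extrudes organic cations into urine, 9596 in the diabetic and 13788 in the nondiabetic array (log2 difference -0.52). Slc22a6, OAT1, the partner of OAT3 at the same membrane, differed by only -0.26, with another probe set at 0.11. Abcc3, a basolateral efflux pump, was higher at 0.60.

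Transporters for filtered nutrients and ions lay less far apart. None of 23 expressed genes for glucose, phosphate, sulfate and carboxylate was 2-fold apart (median -0.07). Slc5a2, the early proximal glucose transporter SGLT2, had 6820.5 in the diabetic and 10324 in the nondiabetic array (log2 difference -0.60), with both probe sets at -0.64 to -0.60, while Slc5a1, the late proximal SGLT1, had 2420.0 in the diabetic and 1784 in the nondiabetic array (log2 differences of its probe sets 0.43 to 0.59). Slc2a2, the basolateral glucose carrier GLUT2, had 10821 in the diabetic and 8132 in the nondiabetic array (log2 difference 0.41). The 2 luminal glucose transporters thus lay on opposite sides, each with both of its probe sets. Slc34a1, the main phosphate transporter, had 11213 in the diabetic and 16823 in the nondiabetic array (log2 difference -0.58), Slc13a3, a dicarboxylate transporter, 12022 in the diabetic and 17992 in the nondiabetic array (log2 difference -0.58), and Kl, klotho, the FGF23 co-receptor, 5750.5 in the diabetic and 7675 in the nondiabetic array (log2 difference -0.41). Of 25 amino acid transporters 1 was at least 2-fold lower (median -0.06), Slc6a15 with 823 in the diabetic and 1776 in the nondiabetic array (log2 difference -1.09). Slc7a9, the light chain of the cystine transporter, had 7541 in the diabetic and 12206 in the nondiabetic array (log2 difference -0.69), and its heavy chain Slc3a1 differed by -0.11. The 9 genes of proximal endocytosis had a median of -0.22 with 7 below 0, among them Lrp2, megalin, with 14839 in the diabetic and 20629.9 in the nondiabetic array (log2 difference -0.47) and a dim probe set at 0.40, and Cubn, cubilin, with 10157 in the diabetic and 12917 in the nondiabetic array (log2 difference -0.35).

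Along the distal nephron the differences were uneven. Over all expressed genes 48.6% lay above 0. Of 18 genes of the loop and distal tubule 16 lay below 0 and 1 was at least 2-fold lower (median -0.29, and 0.12 with the spike-ins made equal). The lowest members, Pvalb, Slc8a1 and Slc12a3, are expressed in the distal convoluted tubule. Pvalb, parvalbumin of its early part, had 1871 in the diabetic and 4059 in the nondiabetic array (log2 difference -1.11), Slc12a3, the thiazide-sensitive cotransporter, 4305 in the diabetic and 8023 in the nondiabetic array (log2 difference -0.89), and Slc8a1, the sodium-calcium exchanger, 2217 in the diabetic and 4228 in the nondiabetic array (log2 difference -0.92). Casr, the calcium-sensing receptor, came next with 254 in the diabetic and 480 in the nondiabetic array (log2 difference -0.85). Kcnj16, a potassium channel, lay at -0.46. Slc12a1, the cotransporter of the thick ascending limb, differed by -0.14, and Umod by -0.41 with both probe sets at -0.49 to -0.41.

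In the collecting duct list 1 of 24 was at least 2-fold higher and 2 lower (median -0.11). Aqp2, the vasopressin-regulated water channel of principal cells, had 3583 in the diabetic and 1446 in the nondiabetic array (log2 difference 1.29), and Aqp3, the basolateral channel, 2241 in the diabetic and 1570.4 in the nondiabetic array (log2 difference 0.51) with 3 probe sets at 0.17 to 0.89. Slc14a2, the urea transporter, had 422 in the diabetic and 223 in the nondiabetic array (log2 difference 0.85). The subunits of the sodium channel, Scnn1a, Scnn1b and Scnn1g, differed by 0.07, -0.04 and 0.29. Of the intercalated cell genes, Slc26a4, pendrin, had 1261 in the diabetic and 3309 in the nondiabetic array (log2 difference -1.37), Atp6v1c2, a proton pump subunit, 164 in the diabetic and 539 in the nondiabetic array (log2 difference -1.57), and Atp6v1b1, a further pump subunit, 703 in the diabetic and 1295 in the nondiabetic array (log2 difference -0.86). Foxi1, the transcription factor of intercalated cells, had 351 in the diabetic and 620.3 in the nondiabetic array (log2 difference -0.78), and the ammonia transporters Rhbg and Rhcg lay at -0.95 and -0.76. Slc4a1, the anion exchanger of acid-secreting intercalated cells and of red cells, differed by -0.41 (-0.79 to -0.41). Among 18 claudin and junction genes none was 2-fold apart (median 0.23), and among 9 osmolyte genes none (median -0.05).

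Amino acid breakdown had the lowest median of any list. Of 39 expressed genes 38 lay below 0 and 3 were at least 2-fold lower, with a median of -0.50, and -0.09 with the spike-ins made equal, beside -0.05 in the sham arrays and -0.01 over all genes. Of all expressed genes 48.6% lay above 0. Hpd, the dioxygenase of tyrosine breakdown, had 1618 in the diabetic and 6763 in the nondiabetic array (log2 difference -2.05), the lowest lead probe set of all expressed genes. The next steps of that pathway, Hgd and Fah, differed by -0.36 and -0.57. In tryptophan breakdown Kmo, the kynurenine hydroxylase, had 1783 in the diabetic and 3767 in the nondiabetic array (log2 difference -1.07), Kynu 941 in the diabetic and 1562 in the nondiabetic array (log2 difference -0.72), Haao 2006 in the diabetic and 3201 in the nondiabetic array (log2 difference -0.67), and Afmid, the formamidase that forms kynurenine and is in no list, 408 in the diabetic and 1380.0 in the nondiabetic array with 3 probe sets at -1.70 to -0.95. For branched-chain amino acids, Ivd, the isovalerate dehydrogenase, had 1835 in the diabetic and 3515 in the nondiabetic array (log2 difference -0.93), Dbt, a subunit of the keto acid dehydrogenase, 2185 in the diabetic and 3613 in the nondiabetic array (log2 difference -0.72), and Hibadh, of the valine branch, 13315 in the diabetic and 21709.7 in the nondiabetic array (log2 difference -0.70). Ddc, which makes dopamine in proximal tubule, was the only member above 0, at 0.17.

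Energy genes lay slightly lower on the deposited scale. Of 36 oxidative phosphorylation genes 32 lay below 0, none by 2-fold, within -0.50 to 0.13 (median -0.17, and 0.24 with the spike-ins made equal, 0.17 in the sham arrays). Sham medians stay on the deposited scale, on which the hybridisation spike-ins of the sham pair went the other way, at 1.24-fold. Of 28 fatty acid oxidation and ketone genes 1 was at least 2-fold higher and the median was -0.15, while in the sham arrays it was 0.21. Angptl4, an inhibitor of lipoprotein lipase and PPAR target, had 2139 in the diabetic and 839 in the nondiabetic array (log2 difference 1.32), and Pdk4, which turns off pyruvate oxidation, 2201 in the diabetic and 1212 in the nondiabetic array (log2 difference 0.85), while Acaa1b, a peroxisomal thiolase, had 15778 in the diabetic and 28542 in the nondiabetic array (log2 difference -0.85). The sham differences of Angptl4, Pdk4 and Acaa1b were 2.18, 1.76 and 0.21. Ppara differed by -0.57 with 3 probe sets at -0.67 to -0.48. In fatty acid and sterol synthesis none of 25 was 2-fold apart (median -0.19). Srebf1, which switches on fatty acid synthesis under insulin, had 1044 in the diabetic and 1912 in the nondiabetic array (log2 difference -0.86), and Scd1, a desaturase it controls, 17370.4 in the diabetic and 27032 in the nondiabetic array (log2 difference -0.64), with both probe sets at -0.64 to -0.52. The glycolysis, gluconeogenesis and pentose phosphate list of 23 had a median of 0.11, in which the glycolytic Pfkp and Pkm had 0.82 and 0.60 and the gluconeogenic Pck1 and G6pc -0.54 and -0.42. The signals of Pck1 were 18386 in the diabetic and 26828 in the nondiabetic array, with 3 probe sets at -1.29 to -0.54.

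Among cytochrome P450 genes 3 of 19 were at least 2-fold higher and 2 lower (median -0.19). Cyp27b1, which activates vitamin D, had 818 in the diabetic and 138 in the nondiabetic array (log2 difference 2.36), and Cyp24a1, which breaks it down, 2004 in the diabetic and 3819.5 in the nondiabetic array (log2 difference -0.92). Their sham differences were 0.96 and 1.28. The vitamin D receptor, Vdr, differed by -0.37 with both probe sets at -0.42 to -0.37. Cyp4b1, a bright kidney enzyme, had 8881 in the diabetic and 18208 in the nondiabetic array (log2 difference -1.03), and Cyp2d12 369 in the diabetic and 1342 in the nondiabetic array (log2 difference -1.79). Of 26 conjugation enzymes 1 was at least 2-fold higher (median -0.11), Ugt2b38, a glucuronosyltransferase with close relatives, with 7256 in the diabetic and 3286 in the nondiabetic array (log2 difference 1.14). Among 9 retinoid genes 2 were at least 2-fold higher (median 0.11): the aldehyde dehydrogenases Aldh1a7 with 2493 in the diabetic and 649 in the nondiabetic array and Aldh1a1 with 2601 in the diabetic and 1278 in the nondiabetic array, differences of 1.90 and 1.01. Antioxidant genes and metallothioneins were not apart by 2-fold in any of 24 (median 0.03). Gpx3, the plasma glutathione peroxidase made in proximal tubule, had 36975 in the diabetic and 51362 in the nondiabetic array (log2 difference -0.47), and Mt2 12659 in the diabetic and 7786 in the nondiabetic array (log2 difference 0.70).

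Lists of hormone and receptor genes followed. Of 12 renin-angiotensin and natriuretic peptide genes 1 was at least 2-fold higher and 2 lower (median -0.31, and 0.10 with the spike-ins made equal). Agt, angiotensinogen, had 1132 in the diabetic and 499.9 in the nondiabetic array (log2 difference 1.14), and Edn1, the vasoconstrictor endothelin 1, 268 in the diabetic and 140.2 in the nondiabetic array (log2 difference 0.82). Npr3, which clears natriuretic peptides, had 251 in the diabetic and 556 in the nondiabetic array (log2 difference -1.07), and Corin, their activating protease, 49.7 in the diabetic and 149.9 in the nondiabetic array (log2 difference -1.21), below the filter in the diabetic array. In the insulin and IGF list none of 19 was 2-fold apart (median -0.10, and 0.31 with the spike-ins made equal). Igf2 had 3792 in the diabetic and 1982 in the nondiabetic array (log2 difference 0.93), Insr, the insulin receptor, 1336 in the diabetic and 2110.2 in the nondiabetic array (log2 difference -0.65), Igfbp3 2597 in the diabetic and 4609.7 in the nondiabetic array (log2 difference -0.82), and Igfbp4 13046 in the diabetic and 20298 in the nondiabetic array (log2 difference -0.64), with 6 probe sets at -0.77 to -0.57. Of 17 nuclear receptors 14 lay below 0 and none was 2-fold apart (median -0.29, and 0.09 with the spike-ins made equal). Esr1, the estrogen receptor, had 474 in the diabetic and 855 in the nondiabetic array (log2 differences of its probe sets -1.83 to -0.82), and Rxra 480.2 in the diabetic and 834 in the nondiabetic array (log2 differences of its probe sets -0.76 to -0.26). Thra, the thyroid hormone receptor, could not be placed, with -0.52 for its lead and 2.47 for another probe set. Of 16 clock genes 13 lay below 0 (median -0.24, and 0.15 with the spike-ins made equal), and of 16 hypoxia and VEGF genes 11 (median -0.17, and 0.24 with the spike-ins made equal), none of either by 2-fold. Vegfa had 1320.1 in the diabetic and 1568 in the nondiabetic array (log2 difference -0.24). The hour at which kidneys were taken is not given in the sources used here.

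Markers of glomerular and vascular cells differed by cell type. Of 15 podocyte genes 1 was at least 2-fold lower (median -0.19), Nphs1, nephrin of the slit diaphragm, with 152 in the diabetic and 420.5 in the nondiabetic array (log2 difference -1.33). Plce1 and Ptpro, other podocyte genes, lay at -0.72 and -0.61, and Wt1, which defines the lineage, at -0.01. The summed signal of the list was 15844 in the diabetic and 16951 in the nondiabetic array. Of 17 endothelial genes 1 was at least 2-fold lower (median 0.04), Ehd3, which in kidney marks glomerular endothelium, with 532 in the diabetic and 1122 in the nondiabetic array (log2 difference -1.04) and -0.47 in another probe set. Cdh5 and Kdr, which define endothelium, differed by 0.22 and -0.17. Smooth muscle, pericyte and mesangial genes were higher for 3 of 13 at 2-fold (median 0.35): Tagln had 2119 in the diabetic and 714 in the nondiabetic array (log2 difference 1.54), Acta2, the smooth muscle actin of myofibroblasts, 5431 in the diabetic and 2640.3 in the nondiabetic array (log2 difference 1.03), and Rgs5 3545 in the diabetic and 1691 in the nondiabetic array (log2 difference 1.06) with 4 probe sets at 0.53 to 1.29. Myh11, the myosin of mature smooth muscle, differed by 0.13. The list's summed signal was 18358 in the diabetic and 11449 in the nondiabetic array.

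Tissue next to the kidney can be carried along in dissection, so its markers were read as well. Of 8 expressed adipocyte genes 3 were at least 2-fold higher (median 0.54, 0.52 in the sham arrays): Adipoq, adiponectin, with 294 in the diabetic and 66.2 in the nondiabetic array (log2 difference 1.79) and a nondiabetic signal below the filter, Fabp4, which is also made by endothelium and macrophages, with 9899 in the diabetic and 3909 in the nondiabetic array (log2 difference 1.33), and Car3 with 2874 in the diabetic and 1229 in the nondiabetic array (log2 difference 1.21) and -0.20 in another probe set. Lep, Cidec and Cidea did not pass the filter, and the summed signal of the list was 26007 in the diabetic and 21940.2 in the nondiabetic array. In the sham arrays that sum was higher, 43331 for diabetic and 36813 for nondiabetic mice. Adipoq had 1380 in the diabetic sham and 817 in the nondiabetic sham array. Of 5 urothelial genes 1 was at least 2-fold higher (median 0.56, 0.70 in the sham arrays), Sprr1a, a cornified envelope protein, with 730.5 in the diabetic and 215 in the nondiabetic array (log2 difference 1.65). Upk1a and Upk3b did not pass the filter, and the summed signals were 1488 in the diabetic and 772 in the nondiabetic array. Of 4 blood genes 1 was at least 2-fold higher (median 0.53), Hbb-b2, a beta globin gene with a near-identical neighbour, with 190.5 in the diabetic and 58.7 in the nondiabetic array (log2 difference 1.35) and a nondiabetic signal below the filter, while Hba-a1 and Alas2 did not pass. Of 4 expressed genes of muscle, adrenal, liver and pancreas 1 was at least 2-fold lower (median -0.12), Alb with 203 in the diabetic and 651 in the nondiabetic array (log2 difference -1.56). The part of such tissue in the differences above was not tested.

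Housekeeping groups had medians near that of all genes. None of 24 ribosomal protein genes was 2-fold apart and their median was 0.00. None of 24 lysosomal genes was 2-fold apart (median 0.07), and Ctsd, cathepsin D, had 7929 in the diabetic and 4901 in the nondiabetic array (log2 difference 0.69). Among 30 chaperone and unfolded protein response genes none was (median 0.02), with Hspa5, the endoplasmic chaperone BiP, at -0.14 and Ddit3, CHOP, at 0.01. Of 28 ribosome biogenesis genes 1 was at least 2-fold higher (median 0.14), Utp20, with 1445 in the diabetic and 542 in the nondiabetic array (log2 difference 1.37). The sham difference of Utp20 was 1.58.

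**Figure D4:**
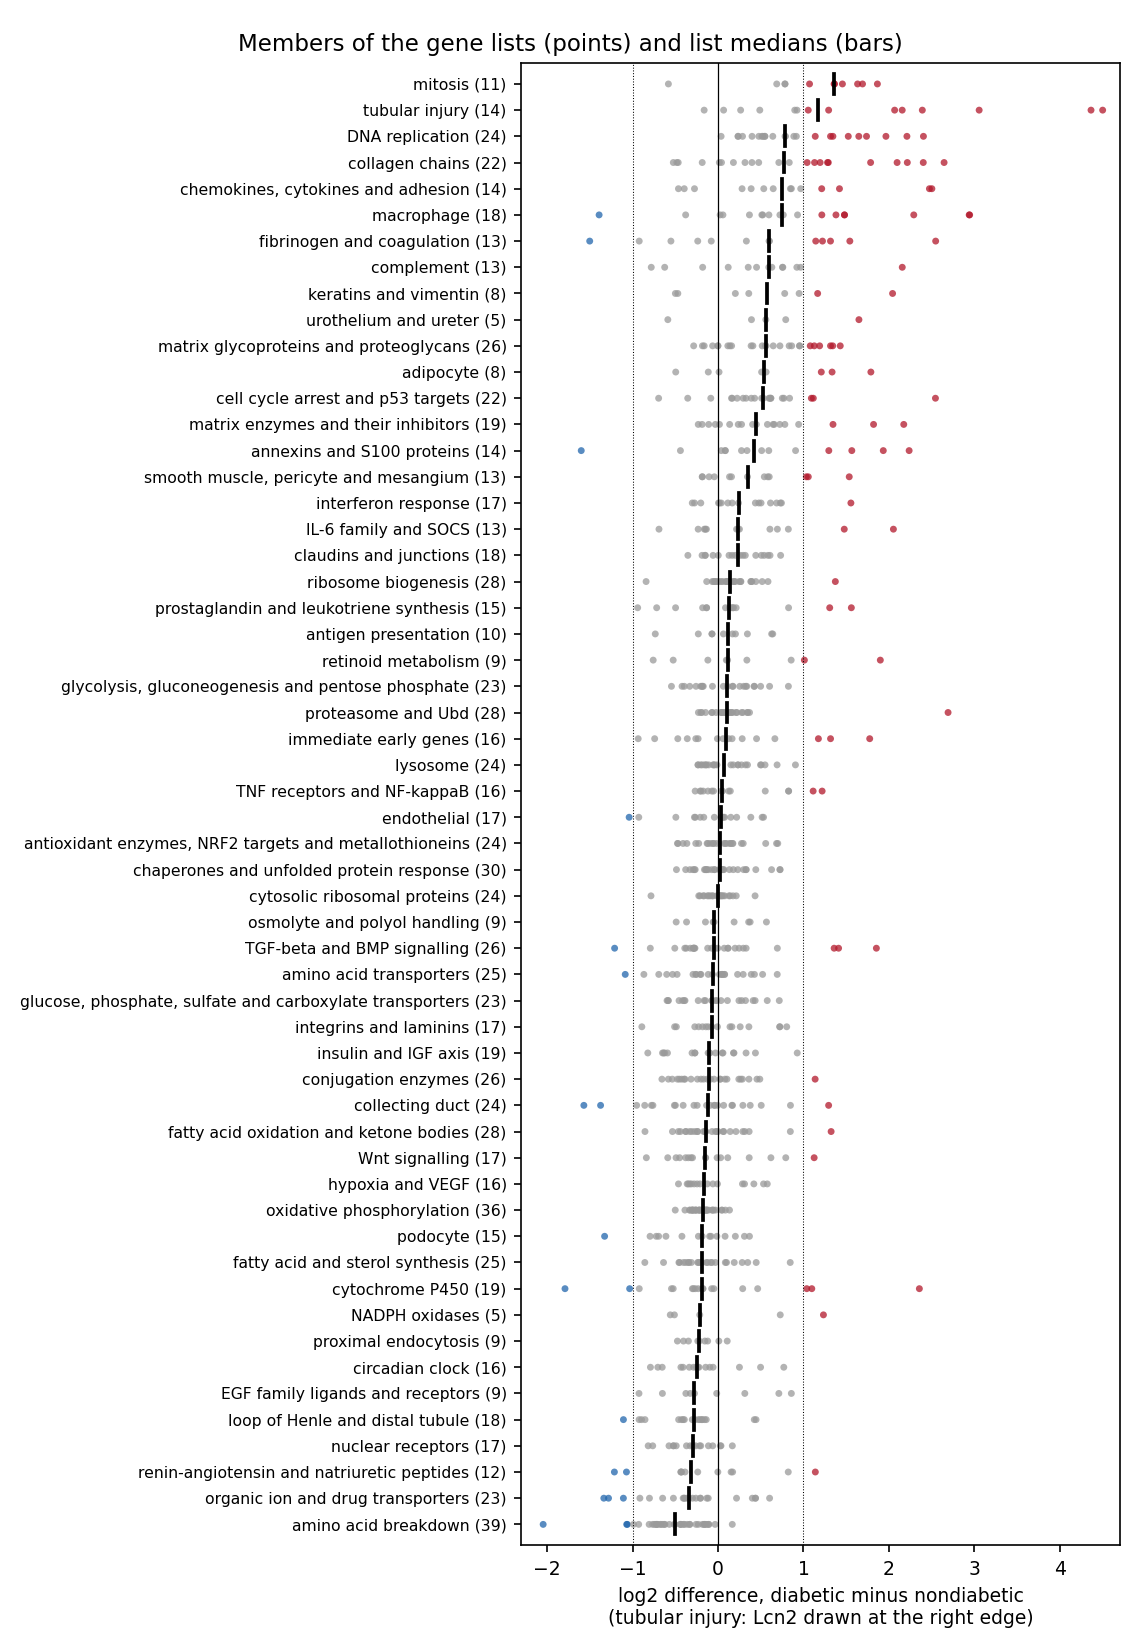
Log2 difference, diabetic minus nondiabetic uninephrectomy, of the lead probe set of each expressed member of the 56 lists with at least 5 expressed members (points, with the number of members in brackets) and the median of each list (black bar). Red points lie at least 2-fold higher and blue points at least 2-fold lower. Mitosis and tubular injury have medians above 1, and amino acid breakdown has the lowest median, -0.50, the only 1 of 24 medians below 0 that stayed below 0 with the spike-ins made equal.

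Of all 11206 expressed genes the 59 lists hold 1037, and they were chosen with earlier results of these data known. They hold 104 of the 240 higher genes and 21 of the 116 lower genes. Among the rest, named for rank or for probe sets of 1 sign, Serpina10, which encodes an inhibitor of activated coagulation factors, had 1044 in the diabetic and 161 in the nondiabetic array (log2 difference 2.51), and 1700016C15Rik, of unknown role, 1088 in the diabetic and 146 in the nondiabetic array (log2 difference 2.69). Fstl1, a secreted follistatin-like protein, had 1472 in the diabetic and 632 in the nondiabetic array (log2 difference 1.19) with both probe sets at 0.96 to 1.19, and Steap1, a metalloreductase, 778 in the diabetic and 378 in the nondiabetic array (log2 difference 0.99). On the lower side, D2hgdh, which oxidises 2-hydroxyglutarate, had 1135 in the diabetic and 3104 in the nondiabetic array (log2 differences of its probe sets -1.43 to -0.92), and Fmo2, a flavin monooxygenase, 3181 in the diabetic and 6041 in the nondiabetic array (log2 difference -0.92) with 4 probe sets at -1.15 to -0.85. Kap, the androgen-regulated protein that is among the most abundant in mouse proximal tubule, had 28539 in the diabetic and 49675 in the nondiabetic array (log2 differences of its probe sets -0.80 to -0.72). Greb1, an estrogen-regulated gene, had 199 in the diabetic and 471 in the nondiabetic array (log2 differences of its probe sets -1.14 to -0.92), and Lin7a, a polarity adaptor, 319.9 in the diabetic and 768 in the nondiabetic array (log2 difference -1.20) with 3 probe sets at -1.20 to -0.85. Several of the lowest by lead probe set alone, Cysrt1, Il1f8, C130026I21Rik and Fbxo46, had diabetic signals of 32.5, 63.2, 61 and 70.4, all below the filter, and nondiabetic signals of 169.8, 267, 283 and 312. Their sham differences were -0.73, 0.39, 0.54 and 0.09.

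Set beside the sham arrays, which share no array with the comparison, 183 of the 240 higher genes, or 76.2%, also lay above 0 there, beside 51.6% of all expressed genes, and 67 of the 116 lower genes, or 57.8%, lay below 0, beside 48.3% of all. In the sham arrays the difference of Havcr1 was 0.64, that of Lcn2 1.88 and that of Col3a1 0.92. Vcam1, Cd14 and Socs3 had differences of 2.16, 2.29 and 2.05 after uninephrectomy, against -0.41, -0.28 and -0.39 after the sham operation. The hybridisation spike-ins stood at 0.749-fold after uninephrectomy and 1.24-fold after the sham operation, diabetic over nondiabetic. With 1 array per group, whether the effect of diabetes differs between the operations was not tested.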

How the data were processed

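Total RNA of frozen kidney was pooled from 4 female mice per group, labelled with biotin and hybridised to Affymetrix mouse arrays, 1 array per pool, per the labels' protocols. The deposited values are linear intensities, 1 per probe set, for 45101 probe sets of which 64 are controls. The authors had scaled them, since the mean without the highest and lowest 2% of values is the same on every array. The software, the background correction and how probes were summarised are not stated in the labels or the file. Intensities say nothing of counting depth, and the number of arrays limits the precision.

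The deposited intensities were turned into log2 values here after adding 26.4, the 20th percentile of all values. Probe sets were named from the platform annotation, with 34945 naming 1 gene, of which 34741 were found by gene number in the RefSeq table, and 932 naming several and 9160 naming none left unnamed. A probe set counted as expressed at or above the median over all probe sets that are not controls. Differences are diabetic minus nondiabetic, with no test, because each group is 1 array. Genes named in the text are the 20 highest and 20 lowest by agreement of probe sets, the 15 highest and 15 lowest by lead probe set, up to 6 members per list and every member at least 2-fold apart, and members needed to show agreement or disagreement of probe sets. Genes with another probe set at least 2-fold apart the other way were also to be named. The text gives examples from these. The genes for the check of labels, and Afmid, Foxm1 and other genes in no list, follow the same rule or check a label. The members and lists were chosen with earlier results of these data known. Alternatives were quantile normalisation, median centring, offsets of 1 and of the 40th percentile, no filter, stricter filters, averaging over a gene's probe sets, leaving out probe sets with suffixes, a 1.5-fold threshold and, chosen after seeing the data, equal hybridisation spike-ins and the sham arrays side by side. Python 3.11.15, numpy 2.4.6, pandas 2.3.3, scipy 1.17.1 and matplotlib 3.10.9 were used, and the code was tested on simulated data. Promoter windows are from RefSeq on GRCm38.p6.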

Additional observations from a re-analysis of the deposited data

Results flagged for a closer look

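Only the 392 genes picked out by rank, by probe sets or from the lists were searched here, not all 11206 expressed genes. For 4 of the 392 the diabetic minus nondiabetic difference passed 2-fold in opposite directions after the operations. With 1 array per group the difference between operations was not tested. Alox5ap, the helper protein of leukotriene synthesis, had a log2 difference of 1.56 in uninephrectomised and -1.07 in sham-operated kidneys. Its nondiabetic signal after uninephrectomy lay below the filter. Bcl3, the NF-kappaB co-factor, had 1.11 after uninephrectomy and -1.12 after the sham operation. Its signals of 87.7 in the nondiabetic uninephrectomy array and 48.4 in the diabetic sham array lay below the filter, so both differences depend on the offset. Cd52, a surface protein of lymphocytes, had 1.02 after uninephrectomy and -1.30 after the sham operation. The gene 1700128F08Rik, of unknown role, ran the other way, with -1.64 after uninephrectomy and 1.10 after the sham operation.

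The 3 control probe sets for 18S ribosomal RNA, which belong to no comparison of genes, were brighter in the diabetic array in both operations, by a mean log2 difference of 0.89 after uninephrectomy and 0.40 after the sham operation.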

How the results depend on the processing

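No paired analysis was possible because each group is 1 array, and for the same reason no replicate could be left out. The counts of genes at least 2-fold apart depended most on the filter and the scaling. Without a filter 657 genes were higher and 900 lower, with the stricter filter 83 and 36, at 1.5-fold 720 and 679, and with equal spike-ins, which moves the median of all genes to 0.39, 657 and 30. Lower genes numbered 75 with median centring, which moves that median to 0.11, 187 with an offset of 1 and 67 with an offset at the 40th percentile. Genes with all probe sets at least 2-fold higher numbered 30 with centring, 29 without a filter, 10 with the stricter filter, 6 without suffixed probe sets, 80 at 1.5-fold and 73 with equal spike-ins. Those lower with all probe sets numbered 3 with centring, with the offset at the 40th percentile and with the stricter filter, 32 without a filter, 43 at 1.5-fold and 0 with equal spike-ins. The share of further probe sets with the sign of a higher gene was 61.7% without a filter, 100% with the stricter filter, 100% when genes were taken as the mean of their probe sets, which holds those probe sets itself, and 94.8% with equal spike-ins. For lower genes it was 100% with averaging and 92.3% without suffixed probe sets. Hells turned to -0.39 with quantile normalisation and -0.50 with an offset of 1, where another of its probe sets became the lead, and Laptm5 to 0.20 with averaging. With equal spike-ins 23 of 24 list medians below 0 turned positive, 5 of them medians at least 1.2-fold from 0: EGF family 0.13, organic ion and drug transporters 0.077, loop and distal tubule 0.12, renin-angiotensin 0.10 and nuclear receptors 0.092. The cause of the other shifts was not tested. Of 56 list medians, all moved by less than 0.19, the median standard deviation between probe sets of a gene, with quantile normalisation, centring, an offset of 1 and averaging, while 8 changed sign with centring. The same held for 55 with the offset at the 40th percentile, 52 with no filter, 54 of 55 with the filter on both uninephrectomy arrays, 45 of 52 with the stricter filter, 47 of 54 without suffixed probe sets and 0 with equal spike-ins. Signals near the filter limit what these arrays can show.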

Other observations

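Of 3155 expressed probe sets that do not name a single gene, 44, or 1.39%, were at least 2-fold higher in the diabetic array and 95, or 3.01%, at least 2-fold lower. Among named genes, each counted only by its lead probe set, more were higher than lower at that fold. Probe sets and genes are unlike units, so these counts were not compared. The probe sets that do not name a single gene were not assigned to genes and enter no other count.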
